A study of Mus musculus with 6 samples.

Results

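The 10 genes described here are the cadherins Cdh1, Cdh2 and Cdh11, the adhesion molecule Epcam, the intermediate filament gene Vim, and the transcription factors Snai1, Snai2, Zeb1, Zeb2 and Twist1, all of which mark or drive the epithelial-mesenchymal transition (EMT). They were chosen by gene symbol, older symbols accepted, and were represented by 25 of the 46632 probes on the arrays, 10 of 21474 named genes. A probe was kept when it lay above its array's background limit, an intensity of 44.8 to 45.1, on at least 3 of the 6 arrays. By this rule 13 of the 25 probes and 8 of the 10 genes were measured, among 16788 genes and unnamed probes tested. Epcam and Snai2 were not.

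RNA was taken at day 3 of differentiation from embryoid bodies, the clumps that mouse embryonic stem (ES) cells form in suspension, and was hybridised to 6 Illumina bead arrays at positions A to F of 1 slide. Positions A, C and E carried RNA labelled wild type, replicates 1, 2 and 3, from E14 ES cells per the series, and positions B, D and F carried RNA labelled endoglin knockout, replicates 1, 2 and 3. The labels give the strain C57BL/6 for every sample, and no other treatment. How this strain label relates to the E14 line named by the series is not stated. How the endoglin allele was made, whether the knockout line was 1 clone, and whether replicates were separate cultures are not stated. The p-values thus cover the spread between arrays alone, and having 3 arrays per label limits the precision. The series asked what loss of endoglin, an accessory receptor of TGF-beta signalling, changes at this stage.

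In the early embryo, epiblast cells are an epithelium held together by E-cadherin. At the primitive streak, cells that form mesoderm lose E-cadherin, take on N-cadherin and vimentin, and move away as mesenchyme. Factors of the Snail, Zeb and Twist families bind E-box motifs and repress E-cadherin, and TGF-beta family and FGF signals are known to switch them on.

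Of the 6 arrays, 2 did not lie with their label, which bears on every comparison. Eng itself measured 87.0, 90.6 and 44.4 on wild type replicates 1, 2 and 3 and 73.5, 45.4 and 48.7 on knockout replicates 1, 2 and 3. Its other probe was below the limit on all 6 arrays, and where either probe lies relative to the deleted part is not given, so this is a limited check. Over all features tested, the arrays at positions A, B and C differed from each other by 2-fold or more at 0 to 2 features a pair, those at D, E and F at 0, and pairs across these position groups at 79 to 104. Knockout replicate 1, at position B, thus lay with wild type replicates 1 and 2, and wild type replicate 3, at position E, lay with knockout replicates 2 and 3. Here these 2 arrays are called the library labelled knockout replicate 1 and the library labelled wild type replicate 3, and directions follow the labels as deposited. Of the markers of early embryoid bodies, 7 of 7 (Pou5f1, Nanog, T, Mixl1, Eomes, Fgf5 and Otx2) were above the limit on all 6 arrays.

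Upstream sequence was available for 5 of the 10 genes in RefSeq (build GRCm38.p6). The 250 bases before the transcription start are shown for the 3 measured genes with a single listed start, because these genes varied together over the arrays and the Snail and Zeb factors are known to bind the E-box forms CACCTG and CAGGTG. Capitals mark a match to either form, searched so that both strands were covered.
Snai1 (chr2:167537945-167538194, plus strand): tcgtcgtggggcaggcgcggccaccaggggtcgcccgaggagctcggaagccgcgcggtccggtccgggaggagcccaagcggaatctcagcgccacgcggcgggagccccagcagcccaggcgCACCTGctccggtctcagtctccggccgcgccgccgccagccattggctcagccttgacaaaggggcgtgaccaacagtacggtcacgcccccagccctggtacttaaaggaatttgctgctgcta
Vim (chr2:13574061-13574310, plus strand): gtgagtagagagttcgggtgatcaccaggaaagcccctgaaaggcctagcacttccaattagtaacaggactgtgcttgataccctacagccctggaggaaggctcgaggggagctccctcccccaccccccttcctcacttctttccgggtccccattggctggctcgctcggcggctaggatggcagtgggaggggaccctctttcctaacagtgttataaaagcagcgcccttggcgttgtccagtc
Twist1 (chr12:33957421-33957670, plus strand): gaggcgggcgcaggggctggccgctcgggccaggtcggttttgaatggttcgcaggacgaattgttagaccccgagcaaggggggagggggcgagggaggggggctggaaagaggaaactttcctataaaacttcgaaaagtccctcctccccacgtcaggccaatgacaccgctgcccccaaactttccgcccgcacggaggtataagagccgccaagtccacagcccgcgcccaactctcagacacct
The Snai1 window held 1 match, starting 126 bases before the start site, and the Vim and Twist1 windows held 0. Of 32851 mouse windows of this length, 17.2% held at least 1 match. The wider E-box CANNTG, which includes both forms, was found 1 time in the Snai1 window, at the same place, 0 times in the other 2, and in 66.2% of all windows. Epcam, which was not measured, also has a single listed start. Its window, not shown, held 2 matches, starting 187 and 19 bases before the start site. Zeb2 has several listed starts, with 0 matches in each window. A match is a description of the letters only.

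**Figure D1:**
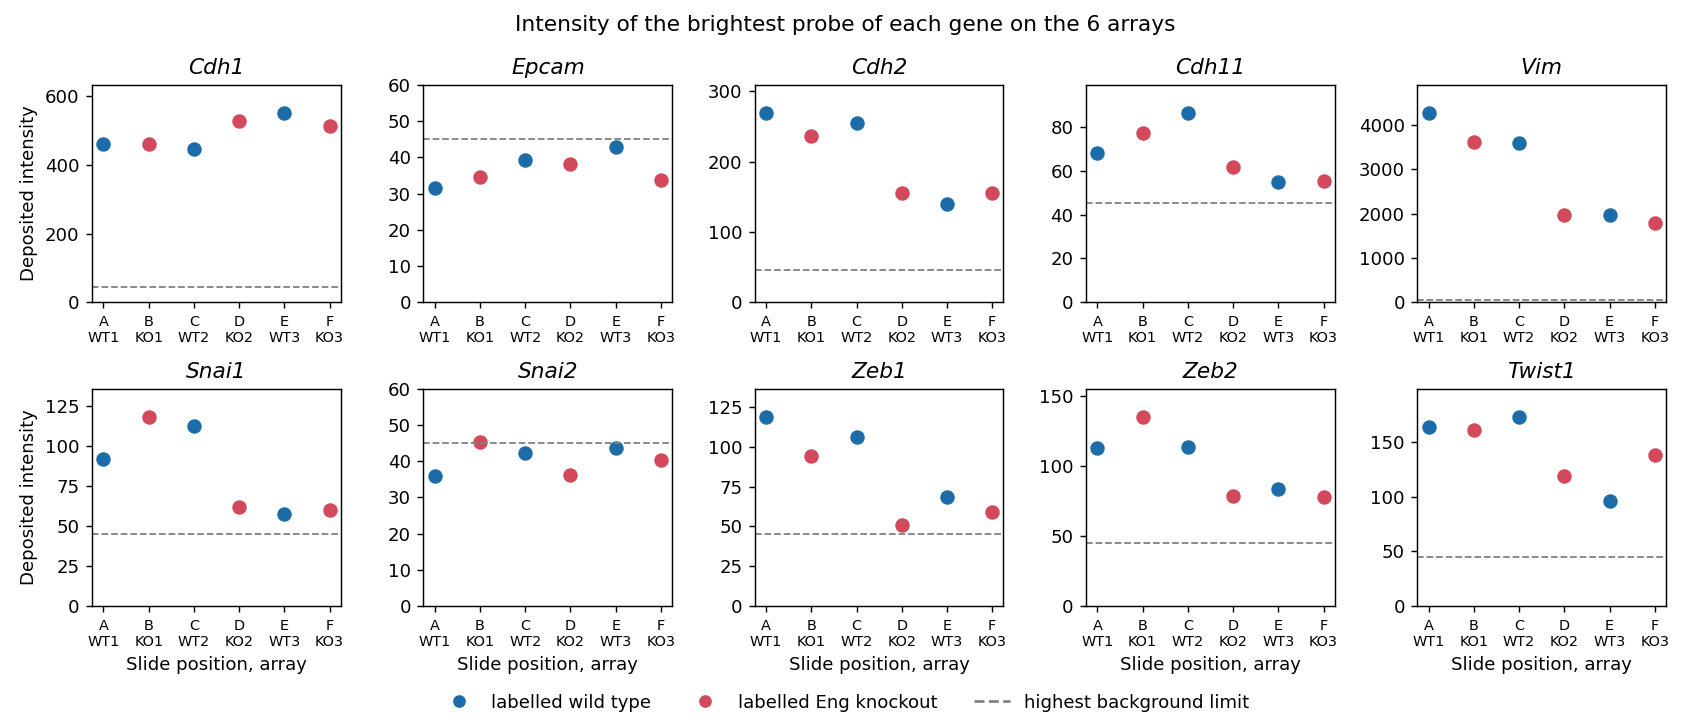
Deposited intensity of the brightest probe of each of the 10 genes, with 1 point per array, ordered by slide position A to F and coloured by label (WT, labelled wild type; KO, labelled Eng knockout). The dashed line is the highest background limit of the 6 arrays. Vim lies between 3596 and 4269 at positions A to C and between 1793 and 1967 at positions D to F, whichever label the array carries.

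E-cadherin, encoded by Cdh1 and the main adhesion molecule of epithelial cells, was detected on every array, with intensities 460.4, 445 and 550 on wild type replicates 1, 2 and 3 and 461, 528 and 515 on knockout replicates 1, 2 and 3. The labels overlapped. The 3 arrays at positions D to F, with 1 wild type and 2 knockout labels, were all above the 3 at positions A to C, by a narrow margin of 515 against 461. The highest array was 1.24 times the lowest, the smallest span among the 8 measured genes. The log2 level averaged 8.98 ± 0.16 (SD, n = 3) for wild type labels and 9.03 ± 0.10 (SD, n = 3) for knockout labels, a difference of 0.05 (SE 0.09; limma adjusted p = 0.999). A dimmer Cdh1 probe ran from 41.1 to 51.3, close to the limit, and its position groups overlapped. Epcam, which encodes another epithelial adhesion molecule, has 1 probe here, and it lay between 31.4 and 42.9, below the limit on all 6 arrays, so no level can be given.

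N-cadherin, encoded by Cdh2 and gained by cells that enter mesoderm, gave 269, 255 and 139 on wild type replicates 1, 2 and 3 and 236, 156 and 155 on knockout replicates 1, 2 and 3. The library labelled wild type replicate 3 was the lowest of all 6, and the library labelled knockout replicate 1 stood beside wild type replicates 1 and 2. The mean log2 level was 7.88 ± 0.47 (SD, n = 3) for wild type labels and 7.66 ± 0.31 (SD, n = 3) for knockout labels. The difference of -0.23 (SE 0.24) was smaller than the spread within the labels (limma adjusted p = 0.999). A second Cdh2 probe had the same split, with 108 to 125 at positions A to C and 61.3 to 84.3 at positions D to F. Another, at 49.5 to 60.2, near the limit, showed none, so the probes disagreed. The second deposited table names a predicted locus for the brighter 2 of these probes, and the platform annotation names Cdh2.

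Cdh11, a cadherin of mesenchymal cells, was dim, at 68.3, 86.4 and 55.1 on wild type replicates 1, 2 and 3 and 77.6, 61.9 and 55.6 on knockout replicates 1, 2 and 3. The arrays at positions A to C were again above those at D to F, here by 68.3 against 61.9. The labels differed by -0.07 (SE 0.14) on the log2 scale, with an adjusted p of 0.999 in limma. Its other 2 probes did not pass the filter.

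Vim, which encodes the intermediate filament of mesenchymal cells, had the widest span of the 8 measured genes. It measured 4269, 3596 and 1967 on wild type replicates 1, 2 and 3, and 3621, 1966 and 1793 on knockout replicates 1, 2 and 3. The highest array was 2.38 times the lowest. The library labelled wild type replicate 3 and knockout replicate 2 were nearly equal, while wild type replicates 1 and 3 lay more than 2-fold apart. The log2 level was 11.62 ± 0.58 (SD, n = 3) for wild type labels and 11.21 ± 0.55 (SD, n = 3) for knockout labels. The difference of -0.41 (SE 0.34) did not pass (limma adjusted p = 0.999). The second Vim probe was not above the limit often enough to be kept.

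Among the repressors of E-cadherin, Snai1, which the streak needs for EMT, gave 92.0, 112 and 57.6 on wild type replicates 1, 2 and 3 and 118, 61.6 and 59.8 on knockout replicates 1, 2 and 3. The highest value therefore belonged to a library labelled knockout and the lowest to one labelled wild type. The labels differed by -0.11 (SE 0.25; limma adjusted p = 0.999). Snai2, its relative in neural crest and other mesenchyme, lay between 35.8 and 45.4, above the limit on 1 of 6 arrays, and was not measured.

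Zeb1, a zinc finger and homeodomain repressor, read 119, 106 and 68.4 on wild type replicates 1, 2 and 3 and 94.5, 51.1 and 59.2 on knockout replicates 1, 2 and 3. Of the 8 genes it had the smallest unadjusted p, 0.0885, for a log2 difference of -0.41 (SE 0.21), with an adjusted p of 0.999 in limma. Its lower values under the knockout label held inside both position groups, -0.20 at A to C and -0.23 at D to F. Vim was also lower in both, at -0.11 and -0.07. Snai1 (0.18 and 0.05) and Cdh11 (0.01 and 0.06) were higher in both. Neither position group has a replicate check for the label that stands there on 1 array.

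Zeb2, of the same family as Zeb1, read 113, 114 and 83.7 on wild type replicates 1, 2 and 3 and 135, 78.4 and 78.2 on knockout replicates 1, 2 and 3. The library labelled knockout replicate 1 was the highest of all 6. The difference was -0.10 (SE 0.18; limma adjusted p = 0.999). Of the other 5 Zeb2 probes, 2 passed the filter, each on 3 arrays only, with values too near the limit to rank.

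Twist1, a basic helix-loop-helix factor of head mesenchyme and somites, had 164, 173 and 95.8 on wild type replicates 1, 2 and 3 and 161, 119 and 139 on knockout replicates 1, 2 and 3. It was the most variable of the factors within positions D to F, from 95.8 to 139, and its label difference was the smallest, -0.01 (SE 0.19; limma adjusted p = 0.999).

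Between the labels, 0 of the 8 measured genes passed an adjusted p under 0.05 in limma, 0 at an unadjusted p under 0.05, and 0 had labels that did not overlap. Over all 16788 features the background was 0.0% at the adjusted threshold, 2.31% at the unadjusted one and 7.18% for labels that did not overlap. By value, 7 of the 8 were lower under the knockout label and Cdh1 was higher, with a median log2 difference of -0.11 beside 0.003 over all features. The SE of these differences ran from 0.09 to 0.34, and a p that missed the threshold does not show that the labels were alike. Fewer cells of a type and less RNA per cell cannot be told apart in RNA of whole embryoid bodies.

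The calls changed without the library labelled knockout replicate 1 and the library labelled wild type replicate 3, left out for their values. With the other 4 arrays, 6 of the 8 genes passed with lower values under the knockout label, where 7.62% of all features passed in either direction and 4.02% passed in that direction. The log2 differences were -1.05 (SE 0.10) for Vim, -0.79 (SE 0.09) for Zeb1, -0.68 (SE 0.08) for Cdh2, -0.58 (SE 0.09) for Snai1, -0.43 (SE 0.08) for Zeb2 and -0.34 (SE 0.09) for Twist1. Their limma adjusted p ran from 0.000127 for Vim to 0.0462 for Twist1. Cdh11, at -0.29 (SE 0.10), and Cdh1, at 0.19 (SE 0.08), did not pass, with adjusted p of 0.118 and 0.189 in limma. Arrays chosen by their values give no independent support for an effect of the genotype.

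**Figure D2:**
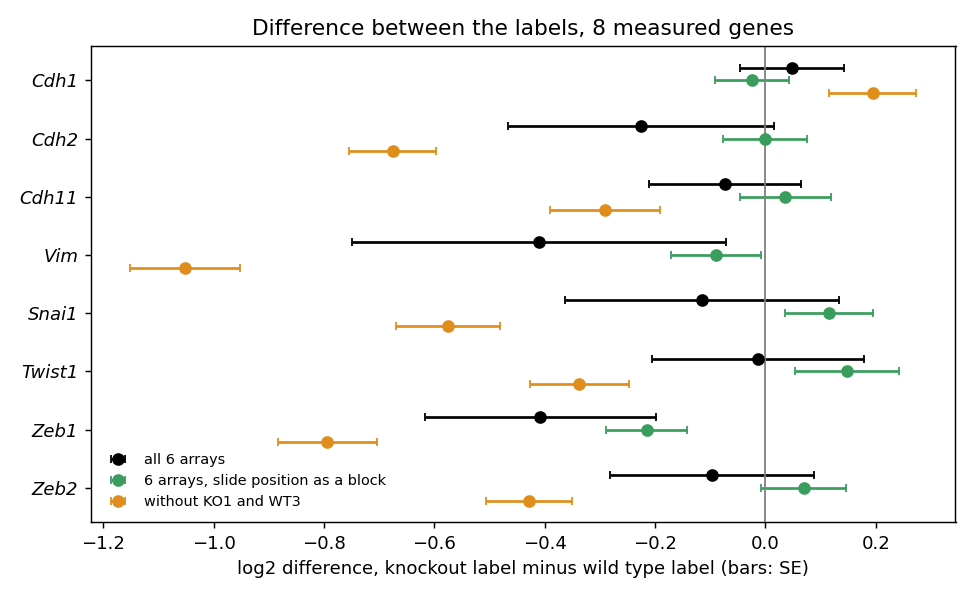
Log2 difference between the labels, knockout minus wild type, for the 8 measured genes, with the SE of the limma fit as bars, in 3 fits: all 6 arrays, all 6 with the position group (A to C or D to F) as a block, and 4 arrays without KO1 and WT3. Vim moves from -0.41 with all arrays to -0.09 with the block and -1.05 without the 2 arrays.

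With the position groups as a block, a choice made because the split was known, the label differences of 5 of the 8 genes changed sign, and 0 passed. Vim then differed by -0.09 (SE 0.08) and Cdh2 by -0.001 (SE 0.08), with limma adjusted p of 1.00 for both. Inside positions A to C, the single library labelled knockout differed from the mean of the 2 labelled wild type by -0.20 (Zeb1) to 0.21 (Zeb2). Inside D to F, the 2 labelled knockout differed from the 1 labelled wild type by -0.23 (Zeb1) to 0.35 (Twist1). Inside each position group the 8 differences thus had mixed signs.

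By position, the 8 measured genes split without exception: in 7, Cdh2, Cdh11, Vim, Snai1, Zeb1, Zeb2 and Twist1, all 3 arrays at A to C were above all 3 at D to F, and in Cdh1 all 3 were below. Over all features, 29.6% did not overlap between these position groups, 14.5% with A to C above and 15.1% with A to C below. This count is a description with no test, since the position groups were taken because the arrays were known to differ that way. Over the 8 genes, the root-mean-square (RMS) log2 difference between 2 arrays was 0.11 to 0.20 for pairs within A to C, 0.10 to 0.18 within D to F and 0.58 to 0.64 across. The same distances over all features were 0.13 to 0.15 within either position group and 0.23 to 0.25 across. Brightness was not matched between the genes and all features, and the background correction shrinks differences of dim probes. Sorted by label, pairs with the same label ran from 0.10 to 0.64 over the 8 genes and pairs with different labels from 0.11 to 0.63. Slide position, the culture the RNA came from and a mix-up of labels cannot be told apart here.

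**Figure D3:**
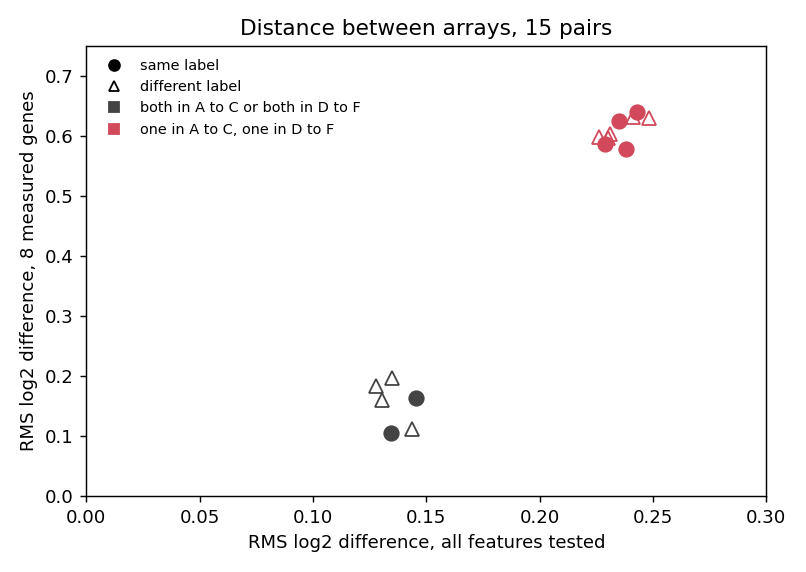
Each of the 15 pairs of arrays, with the RMS log2 difference over all features tested on the horizontal axis and over the 8 measured genes on the vertical axis. Pairs across the position groups lie at 0.58 to 0.64 on the vertical axis and pairs within them at 0.10 to 0.20, with circles (same label) and triangles (different label) in both clusters.

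Other genes of epithelia and mesenchyme were counted from lists made with earlier results of these data known, with 0 members passing between the labels in any of them. The background for the position counts is all features, of which 29.6% did not overlap, 14.5% with A to C above and 15.1% below; differences between the lists were not tested. Of 14 other cadherins 8 were measured, and by position 2 were higher at A to C, 2 were lower and 4 overlapped. Among the lower, Cdh18 passed the filter only through D to F, at 45.4 to 49.7, near the limit. At A to C it lay below the limit, at 36.0 to 39.8, so its split was partly set by the filter. The smallest unadjusted p between the labels were those of Cdh18, at 0.12 (SE 0.09), and of Cdh4, at -0.24 (SE 0.29). Cdh4, or R-cadherin, gave 420.3, 381 and 202 on wild type replicates 1, 2 and 3 and 385, 221 and 223 on knockout replicates 1, 2 and 3, the same split as Cdh2.

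Of 18 measured junction genes (catenins, desmosome, tight junction and polarity genes), 7 had A to C below D to F and 3 above. Their median label difference was 0.01, and those with the smallest p were Lsr, of tricellular junctions, at 0.23 (SE 0.10), and Tjp1, the scaffold ZO-1, at -0.19 (SE 0.08). Cldn4, a claudin named after its values were seen, gave 123, 126 and 233 on wild type replicates 1, 2 and 3 and 121, 315 and 244 on knockout replicates 1, 2 and 3. Of 15 epithelial regulators, all measured, 7 had A to C below and 1 above, with a median label difference of 0.05. Esrp1, a splicing factor of epithelial cells, differed by 0.21 (SE 0.12) and Rab25, a GTPase of epithelial recycling, by 0.38 (SE 0.31). Rab25 ran from 266 to 324 at A to C and from 556 to 597 at D to F.

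Of 12 measured members of the mesenchymal list, 8 had A to C above and 1 below, where 14.5% and 15.1% of all features did. Of the 8, Vcan passed the filter mainly through A to C, at 54.0 to 79.4. At D to F it lay near or below the limit, at 42.7 to 45.0, so its split was partly set by the filter. Acta2, smooth muscle actin, had the smallest p between the labels, with a difference of -0.21 (SE 0.07), labels that did not overlap and a limma adjusted p of 0.999; Lox differed by -0.10 (SE 0.08). Fn1, the fibronectin gene, named after its values were seen, gave 701, 877 and 269 on wild type replicates 1, 2 and 3 and 853, 333 and 315 on knockout replicates 1, 2 and 3. Of 12 streak genes 8 had A to C above and 2 below. Msgn1 differed by -0.17 (SE 0.10) and Tgfb1, a ligand that can switch on Snai1, by -0.49 (SE 0.33). Of 13 other EMT factors 9 were measured, with 2 above at A to C, 1 below and 6 overlapping, a share near that of all features (29.6% not overlapping). The smallest p were those of Gsc, at 0.22 (SE 0.12), and Snai3, at 0.19 (SE 0.14). Snai3, another Snail relative, had A to C below D to F, opposite to Snai1.

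**Figure D4:**
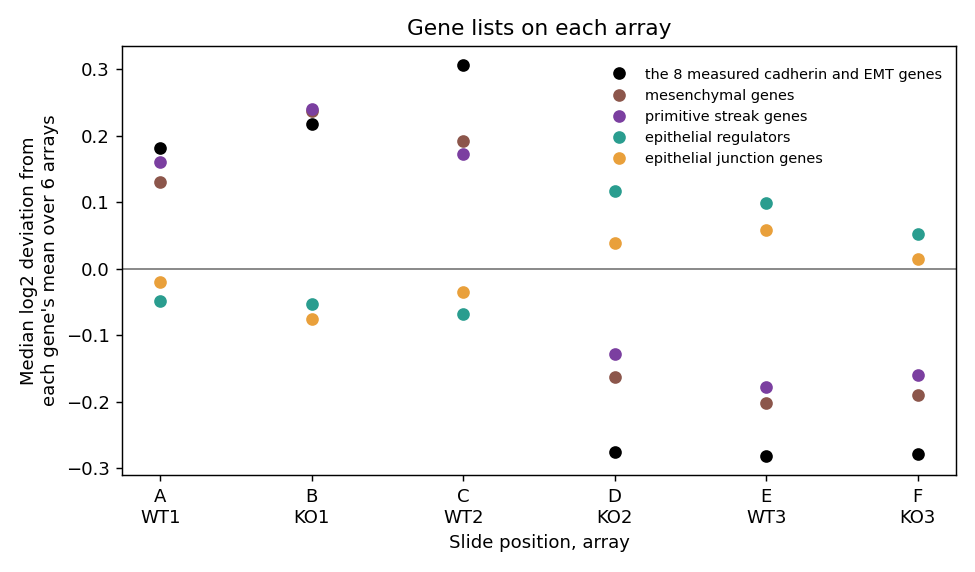
Median over the measured genes of each list of the log2 deviation from the gene's mean over the 6 arrays, with 1 point per list and array, by slide position and label. The 8 genes described here lie at 0.18 to 0.31 at positions A to C and at -0.28 at all of D to F, and the epithelial regulators at -0.07 to -0.05 and at 0.05 to 0.12.

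The genes whose profile over the 6 arrays was nearest to that of a member were looked up for the 3 members with the widest log2 span, by the RMS distance between centred log2 values. For Vim these were Pcdh12 (distance 0.06), a protocadherin of endothelium, Sox9 (0.08) and Lmo2 (0.09). For Zeb1 they were Slc38a4 (0.04), Cx3cl1 (0.05) and Tenm3 (0.06), and for Cdh2 they were Anxa2 (0.04), Zfp703 (0.04) and Egln3 (0.05). Pcdh12 measured 128, 114 and 53.6 on wild type replicates 1, 2 and 3 and 115, 49.9 and 50.2 on knockout replicates 1, 2 and 3, with A to C above D to F as for Vim.

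Markers of other cells that express Vim were set beside these values. Of 10 fibroblast markers, for feeder cells, 5 were measured. Acta2 (164 to 212), Thy1 (161 to 198), Pdgfrb and Col6a1 were above the limit on all 6 arrays, and Dcn on 4. Col1a1, Col1a2, Col3a1 and Lum were below it on all 6 arrays, and Postn was above it on 2. The summed intensity of the 5 measured markers was 524 to 541 under the wild type label and 513 to 521 under the knockout label. It had no step between positions as large as that of Vim. Its brightest markers moved in opposite directions, so this sum can hide shifts of single markers. Acta2 ran from 183 to 212 at A to C and from 164 to 192 at D to F. Thy1 ran from 161 to 177 at A to C and from 185 to 198 at D to F. Of 10 extraembryonic endoderm markers 8 were measured and all 8 split by position, with Gata4, Gata6, Sox7 and Sox17 above at A to C and Dab2, Ttr, Amn and Foxa2 below. The share of all features that split by position was 29.6%, with 14.5% above at A to C and 15.1% below. Ttr passed the filter only through D to F, at 57.3 to 60.3, so its split was partly set by the filter. At A to C it lay below the limit, at 37.3 to 43.4. Sox7 passed mainly through A to C, at 79.7 to 105. At D to F it lay near or below the limit, at 37.0 to 45.2, so the filter partly set its split too. The sum of the 8 endoderm markers was 1936 to 2987 under the wild type label and 2142 to 2596 under the knockout label. By position it did not overlap and ran the same way as Vim, with 2596 to 2987 at A to C and 1936 to 2167 at D to F. Gata6 contributed 1324 to 1530 of this at A to C and 492 to 642 at D to F. The median log2 deviation over the 8 markers overlapped, with 0.02 to 0.13 at A to C and -0.13 to 0.03 at D to F. The sum thus does not stand for the markers as a set. The part of feeder or endoderm cells in the values of the 8 genes was not tested.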

How the data were processed

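The authors deposited a linear intensity for each probe on each array, from Trizol RNA amplified to biotinylated cRNA, per the labels' protocols. Their normalization is not stated in the files or labels; the 6 columns share a median of 45.1 and a highest value of 32123. A second table has 12 value columns that match no sample label and were not used; only its symbol column was read. Probes were named from the platform annotation (29976) or that column (7384).

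Normexp background correction (offset 50), which shrinks differences of dim probes, and a log2 transform were applied with limma 3.58.1 (R 4.3.3). The limit was the 95th percentile of a normal background around each array's most frequent intensity. The brightest probe represented a gene. Labels were compared with lmFit and eBayes over all features (two-sided, Benjamini-Hochberg). The fit was tested on simulated data with independent noise on each array, which lacks the split by position seen here. Replicate numbers were checked for pairing. Deviations from the label means correlated at 0.61, -0.30 and 0.53 for same-numbered arrays and at -0.72 to 0.54 for the others. The signs followed the position groups, so this check cannot decide whether the numbers are paired. The main fit used no pairing. Members and lists were chosen with earlier results of these data known. Named from each list were all called members up to 4, or the 2 with the smallest p; other names are marked as chosen later, except cell markers, named from their lists by whether they passed the limit and, for endoderm, by position.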

Additional observations from a re-analysis of the deposited data

How the results depend on the processing

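Alternatives were run for the background correction, the normalization, the filter, the choice of probe, the variance model, array weights, blocks, a 2-fold threshold and arrays left out. In each of these but 1, 0 of the genes and 0 of all features passed in limma (387 features at an unadjusted p under 0.05 with all arrays). The exception was the joint omission of the library labelled knockout replicate 1 and the library labelled wild type replicate 3, with 6 genes and 1279 features. The replicate block gave 0 genes and 0 features, and a Vim difference of -0.41 (SE 0.14, limma adjusted p = 0.946). With slide positions as a block, the signs turned for Cdh1 (-0.025), Cdh11 (0.036), Snai1 (0.115), Twist1 (0.148) and Zeb2 (0.069); by construction this compares labels within position groups. With 1 array left out at a time, the counts were 0 to 0 and the differences ran from -0.0082 to 0.138 for Cdh1, -0.191 to 0.051 for Cdh11, -0.365 to 0.049 for Snai1, -0.244 to 0.117 for Twist1, -0.310 to 0.011 for Zeb2, -0.496 to -0.074 for Cdh2, -0.739 to -0.185 for Vim and -0.605 to -0.273 for Zeb1. Subtraction of the background peak gave -0.755 for Zeb1, and array weights, 0.564 and 0.644 for the 2 libraries that stood apart, gave -0.68 for Vim. Differences of dim genes, within about 2-fold of the limit (Cdh11 throughout), are shrunk by the offset of the background correction. Background correction from detection p-values was not run, since those columns match no label.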
